A study of Mus musculus with 12 samples.

Results

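Immediate early transcription factors were followed in CT26 cells, a mouse colon carcinoma line, through 10 genes: the FOS family members Fos, Fosb, Fosl1 and Fosl2, the JUN family members Jun and Junb, the related leucine zipper factor Atf3, the zinc finger factors Egr1 and Egr2, and the nuclear protein gene Ier2. The genes were chosen by symbol, and each was read from 1 probe set, the one with the highest mean over the 12 arrays among those assigned to that symbol alone. All 10 were present, with 14 probe sets between them, among 17097 genes measured on Affymetrix 3′ expression arrays. Total RNA from 4 groups was hybridised, with 3 arrays per group, to compare short-term starvation in vitro (STS), oxaliplatin (OXP, a platinum drug that forms DNA crosslinks) and their combination with control culture. STS+OXP cells were kept for 48 hours in starvation medium (1% serum, glucose at 0.5 g/L) and were given oxaliplatin 24 hours into that time. OXP cells received the drug in full medium (10% serum, glucose at 1.0 g/L), STS cells received starvation medium without drug, and control (CTR) cells received full medium without drug. The sample records state an oxaliplatin concentration of 10 µM. The methods of the study also place the addition 24 hours after STS, with a range of concentrations that starts at 10 µM. The legend that covers the arrays gives another concentration, and the legend of the viability assay gives a later addition. The dose and timing behind the arrays are therefore uncertain. All groups are 1 cell line at 1 time, and the sources do not say that replicate arrays are independent cultures, so the p-values below measure the spread between arrays.

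Immediate early genes are transcribed within minutes of a signal from proteins already present in the cell, and their mRNAs are usually short-lived. Serum growth factors act on them mainly through the ERK pathway, serum response factor (SRF) and its ternary complex partners, and cell stress acts mainly through the JNK and p38 kinases. FOS and JUN proteins pair through leucine zippers to form the AP-1 factor, EGR proteins bind GC-rich DNA, and ATF3 is a stress-inducible factor of the same zipper superfamily that often acts as a repressor.

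The DNA just upstream of the start sites is shown for the members whose start regions held letters recognised by the factors above. RefSeq start windows were found for 7 members (Fos, Fosb, Fosl2, Jun, Junb, Egr2 and Atf3), and the 250 bases before the start were searched on both strands for TGACG (the core of the cyclic AMP response element), the CArG box of SRF, CCGGAA (the ETS core), GCGGGGGCG (the EGR consensus), TATAAA (the TATA box), TGACTCA (the AP-1 consensus) and TGATGNAA (the core of the C/EBP-ATF element). Egr2 had 5 start windows, of which 1 is printed, the 1st of 3 overlapping ones that share its matches. In the 6 sequences printed here, 5′ to 3′ in the direction of the gene on build GRCm38.p6, capitals mark every match.
Fos, chr12:85473640-85473889, plus strand: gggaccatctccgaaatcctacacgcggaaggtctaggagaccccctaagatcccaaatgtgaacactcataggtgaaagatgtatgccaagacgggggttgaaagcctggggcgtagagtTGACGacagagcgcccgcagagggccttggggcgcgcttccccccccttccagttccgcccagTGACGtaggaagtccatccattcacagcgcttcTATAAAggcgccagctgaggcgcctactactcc
Fosb, chr7:19310046-19310295, minus strand: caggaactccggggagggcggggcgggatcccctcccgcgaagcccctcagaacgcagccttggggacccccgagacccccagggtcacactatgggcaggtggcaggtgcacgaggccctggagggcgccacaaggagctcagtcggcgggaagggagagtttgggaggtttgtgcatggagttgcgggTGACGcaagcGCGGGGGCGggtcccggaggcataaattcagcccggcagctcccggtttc
Fosl2, chr5:32136222-32136471, plus strand: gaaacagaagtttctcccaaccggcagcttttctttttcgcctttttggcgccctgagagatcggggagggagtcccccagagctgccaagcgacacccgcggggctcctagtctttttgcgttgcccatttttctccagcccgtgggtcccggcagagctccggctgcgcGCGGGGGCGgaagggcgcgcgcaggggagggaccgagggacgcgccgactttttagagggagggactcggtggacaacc
Junb, chr8:84978749-84978998, minus strand: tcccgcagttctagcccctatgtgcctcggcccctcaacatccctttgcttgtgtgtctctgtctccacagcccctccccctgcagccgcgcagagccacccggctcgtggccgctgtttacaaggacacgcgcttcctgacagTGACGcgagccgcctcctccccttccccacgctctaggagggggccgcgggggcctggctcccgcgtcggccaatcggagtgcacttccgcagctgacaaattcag
Egr2, chr10:67537619-67537868, plus strand: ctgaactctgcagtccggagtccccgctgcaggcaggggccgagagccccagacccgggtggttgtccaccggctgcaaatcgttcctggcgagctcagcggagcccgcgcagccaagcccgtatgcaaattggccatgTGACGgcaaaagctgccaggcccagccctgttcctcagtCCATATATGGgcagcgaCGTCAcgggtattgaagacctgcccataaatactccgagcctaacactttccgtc
Atf3, chr1:191183334-191183583, minus strand: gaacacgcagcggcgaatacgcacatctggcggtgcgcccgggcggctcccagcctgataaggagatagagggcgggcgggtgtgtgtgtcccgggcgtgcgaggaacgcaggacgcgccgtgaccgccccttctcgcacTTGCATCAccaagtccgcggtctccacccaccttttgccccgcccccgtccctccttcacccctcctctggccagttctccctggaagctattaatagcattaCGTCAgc

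TGACG was found in Fos at -129 to -125 and at -66 to -62, in Fosb at -60 to -56, in Junb at -106 to -102, in Egr2 at -111 to -107 and, on the other strand, at -55 to -51, and in Atf3 on the other strand at -7 to -3, where -1 is the last base before the start. It occurred in 17.8% of 32851 mouse windows of the same length. The CArG box of Egr2 at -72 to -63 is a rarer string, held by 1.47% of windows, and the EGR consensus, at -50 to -42 in Fosb and at -79 to -71 in Fosl2, was held by 2.57%. Fos also had TATAAA at -33 to -28 (12.4% of windows), and Atf3 had the C/EBP-ATF core on the other strand at -110 to -103 (3.45% of windows). The Jun window matched none of the strings, and TGACTCA (4.46% of windows) and CCGGAA (12% of windows) were absent from the 6 printed windows. Of the other Egr2 windows, the one at chr10:67537316-67537565 held 3 matches to CCGGAA and a CArG box, and the one at chr10:67535249-67535498 held no match. No match overlapped another in the printed windows, and a match describes letters only. The search took exact strings, so a site that differs by a letter or lies farther upstream was not found. A window without a match may still hold such a site.

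The arrays were first checked for quality and identity. On each array the highest of 20 control probe sets that match no mouse RNA lay between 3.19 and 3.47 on the log2 scale, and signals at or below it are treated here as background. Of the epithelial and colon markers, 4 of 8 were above these controls on all 12 arrays (Epcam, Krt8, Krt20 and Cdx2) and the other 4, Cdh1, Krt18, Krt19 and Vil1, on none. All 4 mesenchymal markers were above the controls on every array, but their levels moved. Cdh2 was lower than in CTR by 2.05 in STS+OXP (adjusted p = 3.96e-08, limma) and by 1.68 in OXP (adjusted p = 2.69e-07). Fn1 was higher by 0.63, 0.34 and 1.16 in STS+OXP, OXP and STS (adjusted p of up to 0.0308). Zeb1 was higher by 0.31, 0.24 and 0.28 (adjusted p of up to 0.0436), and Vim was called in none. Of 5 leukocyte markers, Cd3e and Adgre1 were above the controls on all 12 arrays, Ptprc and Itgam on none, and the macrophage gene Cd68 on 3 arrays, and Cd68 was called higher in OXP (mean signal 4.41) than in CTR (2.94, at background; adjusted p = 0.00959, limma). The summed leukocyte signal spanned 5.77 to 5.84 in STS+OXP, 5.63 to 6.43 in OXP, 5.71 to 5.76 in STS and 5.76 to 5.83 in CTR. Of 4 fibroblast markers, Col1a1 and Pdgfra were above the controls on all 12 arrays, Dcn on 9 and Thy1 on none, and Dcn was called higher in STS+OXP (mean 4.02, adjusted p = 3.77e-05) and in OXP (mean 4.18, adjusted p = 8.55e-06) than in CTR, where it was at background (mean 3.11). Col1a1 was called higher in STS than in CTR (by 0.34, adjusted p = 0.0233, limma). Of 4 endothelial markers, 1 (Kdr) was above the controls on all arrays and the others on none. Kdr was called lower in STS+OXP than in CTR (by 0.34, adjusted p = 0.0273). The OXP arrays stood apart from one another. OXP replicate 1 had a difference of 3.85 log2 units between the 3′ and 5′ Gapdh control probe sets, against -0.117 to 0.284 on the other 11 arrays. Its 3′ to 5′ difference for actin was 2.33, against 0.842 to 1.33 on the other 11 arrays. The cause of both was not tested. OXP replicate 2 lay at a root mean square difference over all genes of 0.173 from the STS+OXP arrays and 0.298 from the other OXP arrays. OXP replicate 3 was also somewhat nearer to the STS+OXP arrays, at 0.242 against 0.274, whereas OXP replicate 1 was at 0.344 against 0.321. Calls and values without OXP replicate 1 or 2 are given below for the results they move. Leaving out both leaves 1 OXP array with no spread of its own, so comparisons with OXP are given there as effect sizes only. That setting is still counted among the alternatives below. The part of the marker differences in the results was not tested.

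Against CTR, most of the factors were higher in all 3 treatments and Atf3 was lower in all 3. In STS+OXP, 7 of the 10 rose and 1 fell at an adjusted p under 0.05 (limma, Benjamini-Hochberg over 17097 genes), against 16.4% of all genes that rose and 14.2% that fell. In OXP, 8 rose and 1 fell, against 17.5% and 13.9% of all genes. In STS, 7 rose and 1 fell, against 9.75% and 6.74%. Fos, Fosl2, Jun, Junb, Egr1, Egr2 and Ier2 rose in every treatment, Fosb rose in OXP, and Fosl1 passed the test in none. The median log2 fold change of the 10 genes was 1.70 in STS+OXP, 1.40 in OXP and 1.31 in STS, while the median of all genes was 0.00, -0.01 and -0.03 in the same order. The 3 comparisons share the CTR arrays, so an unusual CTR array touches all of them. CTR replicate 1 had the lowest CTR value for 8 of the 10 genes. With any 1 of the 12 arrays left out, 7 members rose in STS+OXP, 7 to 8 in OXP and 7 to 8 in STS, and 1 fell in each. In OXP the same 8 genes rose and Atf3 fell without OXP replicate 1 and without OXP replicate 2. With both left out, which leaves 1 OXP array, the changes of these genes kept their direction.

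**Figure D1:**
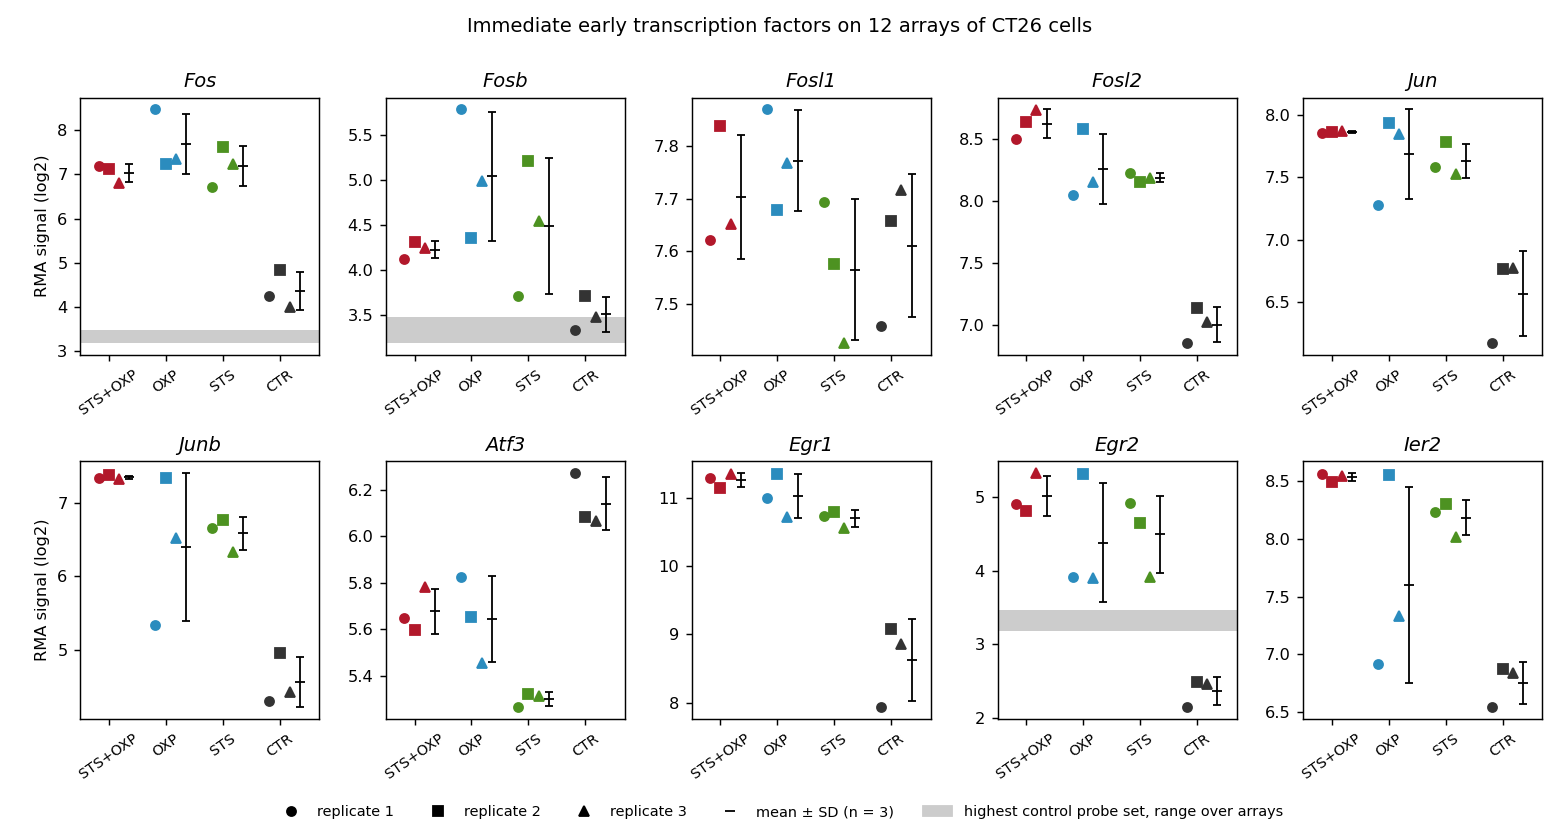
RMA signal (log2, y axis) of each of the 10 genes on the 12 arrays, by group, with symbols for the replicate number and a bar for the mean ± SD (n = 3). The grey band is the range of the highest control probe set, 3.19 to 3.47, drawn where the axis reaches it, and it lies above all 3 CTR arrays of Egr2.

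Fos, the partner that makes JUN a strong activator, had the largest increases of the members that were above background in CTR, in OXP and in STS. Its signal was 7.18, 7.12 and 6.80 on the STS+OXP arrays, 8.47, 7.24 and 7.35 on the OXP arrays, 6.71, 7.63 and 7.23 on the STS arrays, and 4.26, 4.84 and 4.01 on the CTR arrays. Every treated array was above every CTR array. Fos rose 6.34-fold in STS+OXP (log2 fold change 2.66, SE 0.307, adjusted p = 1.19e-05, limma), 9.96-fold in OXP (3.32, adjusted p = 1.50e-06) and 7.06-fold in STS (2.82, adjusted p = 2.88e-05). Counted from the largest increase among 17097 genes, this was the 40th in STS+OXP, the 13th in OXP and the 13th in STS. The OXP log2 fold change was 2.93 without OXP replicate 1, 3.54 without OXP replicate 2 and 2.98 without both.

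Fosb, a second activating FOS protein, was dim. It measured 4.12, 4.30 and 4.24 in STS+OXP, 5.78, 4.35 and 4.99 in OXP, 3.71, 5.21 and 4.54 in STS, and 3.33, 3.71 and 3.48 in CTR, where 2 of 3 arrays were above the control probe sets. The STS+OXP and OXP arrays were all above CTR, whereas STS replicate 1 was at the level of the highest CTR array. Fosb rose 2.90-fold in OXP (log2 fold change 1.53, SE 0.345, adjusted p = 0.00320, limma), with 1.16 without OXP replicate 1, 1.88 without OXP replicate 2 and 1.48 without both. The differences of 0.72 in STS+OXP (95% confidence interval -0.03 to 1.46, adjusted p = 0.150) and 0.98 in STS (0.24 to 1.72, adjusted p = 0.0728) did not pass the adjusted test. The STS difference was 0.62 to 1.37 with 1 array left out, with an adjusted p of up to 0.293, and was called without STS replicate 1 (adjusted p = 0.0136), OXP replicate 1 (0.0200) or OXP replicate 2 (0.0324), the OXP arrays entering through the shared estimate of spread.

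Fosl2, which encodes FRA-2, an AP-1 member that lacks the strong activation domain of FOS, had tighter replicates. It measured 8.50, 8.64 and 8.73 in STS+OXP, 8.05, 8.58 and 8.15 in OXP, 8.22, 8.15 and 8.19 in STS, and 6.85, 7.13 and 7.02 in CTR. The lowest treated array was well above the highest CTR array. Fosl2 rose 3.08-fold in STS+OXP (log2 fold change 1.62, SE 0.122, adjusted p = 2.18e-07, limma), 2.40-fold in OXP (1.26, adjusted p = 2.39e-06) and 2.28-fold in STS (1.19, adjusted p = 1.79e-05). The second Fosl2 probe set, with a mean signal of 4.88, differed from CTR by only 0.19, 0.16 and 0.09 in STS+OXP, OXP and STS, so the 2 probe sets disagree and the increase rests on the brighter one.

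Fosl1, which encodes FRA-1, an AP-1 member often high in invasive carcinoma cells, was the FOS gene with no detected change. It measured 7.62, 7.84 and 7.65 in STS+OXP, 7.87, 7.68 and 7.77 in OXP, 7.69, 7.58 and 7.43 in STS, and 7.46, 7.66 and 7.72 in CTR. All 4 groups overlapped. The log2 fold changes were 0.09 in STS+OXP (95% confidence interval -0.12 to 0.30, adjusted p = 0.567, limma), 0.16 in OXP (-0.05 to 0.37, adjusted p = 0.256) and -0.05 in STS (-0.25 to 0.16, adjusted p = 0.818). These intervals leave room for changes of up to 0.37 log2 units. The dimmer Fosl1 probe set differed from CTR by -0.34, -0.47 and -0.29 in STS+OXP, OXP and STS, with its lowest OXP signal, 4.04, on OXP replicate 1.

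Jun, the founding AP-1 subunit and the target of JNK, measured 7.86, 7.87 and 7.87 in STS+OXP, 7.28, 7.94 and 7.84 in OXP, 7.58, 7.78 and 7.53 in STS, and 6.17, 6.77 and 6.77 in CTR. The STS+OXP arrays were nearly identical to one another, and all treated arrays were above CTR. Jun rose 2.45-fold in STS+OXP (log2 fold change 1.29, SE 0.174, adjusted p = 4.92e-05, limma), 2.17-fold in OXP (1.12, adjusted p = 0.000183) and 2.09-fold in STS (1.06, adjusted p = 0.000825). Its second probe set differed from CTR by 1.32, 1.36 and 1.12 in STS+OXP, OXP and STS.

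Junb, which encodes a JUN protein that can restrain JUN, measured 7.34, 7.38 and 7.33 in STS+OXP, 5.34, 7.34 and 6.52 in OXP, 6.65, 6.76 and 6.34 in STS, and 4.31, 4.95 and 4.43 in CTR. The 3 OXP arrays were far apart, with replicate 1 near the CTR level and replicate 2 at the STS+OXP level. Junb rose 6.91-fold in STS+OXP (log2 fold change 2.79, SE 0.352, adjusted p = 2.80e-05, limma), 3.58-fold in OXP (1.84, adjusted p = 0.000984) and 4.07-fold in STS (2.02, adjusted p = 0.00128). The OXP value was 2.37 without OXP replicate 1 and 1.37 without OXP replicate 2, called both times, and 1.96 without both.

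Egr1, a zinc finger factor induced through SRF by serum and by stress, was bright on every array. It measured 11.29, 11.15 and 11.35 in STS+OXP, 11.00, 11.35 and 10.72 in OXP, 10.74, 10.80 and 10.56 in STS, and 7.94, 9.07 and 8.86 in CTR. The lowest treated array was well above the highest CTR array, and CTR replicate 1 was the lowest by a wide margin. Egr1 rose 6.21-fold in STS+OXP (log2 fold change 2.64, SE 0.231, adjusted p = 9.24e-07, limma), 5.28-fold in OXP (2.40, adjusted p = 2.20e-06) and 4.21-fold in STS (2.07, adjusted p = 3.49e-05).

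Egr2, the relative of Egr1 with the CArG box printed above, is best known from hindbrain and Schwann cell development. It measured 4.91, 4.82 and 5.33 in STS+OXP, 3.92, 5.32 and 3.91 in OXP, 4.93, 4.65 and 3.91 in STS, and 2.15, 2.49 and 2.45 in CTR. All treated arrays were above the control probe sets and no CTR array was, so its increase is given as a bound against the control probe sets of the CTR arrays. Egr2 was at least 3.35-fold higher in STS+OXP, at least 2.15-fold higher in OXP and at least 2.33-fold higher in STS, and these bounds were not tested. The test was of the fitted log2 fold changes, with CTR at background. They were 2.66 in STS+OXP (adjusted p = 2.48e-05, limma), 2.02 in OXP (adjusted p = 0.000281) and 2.13 in STS (adjusted p = 0.000542). The OXP call held without OXP replicate 1 (adjusted p = 0.000108) or OXP replicate 2 (0.000162). Without both, the fitted log2 fold change was 1.55, with CTR at background. The second Egr2 probe set averaged 4.98 on the STS+OXP arrays, 4.17 on the OXP arrays, 4.25 on the STS arrays and 2.63 on the CTR arrays, the last mean being below the control probe sets.

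Ier2, an immediate early nuclear protein gene, measured 8.56, 8.50 and 8.54 in STS+OXP, 6.92, 8.55 and 7.33 in OXP, 8.23, 8.31 and 8.02 in STS, and 6.54, 6.87 and 6.84 in CTR. The STS+OXP and STS arrays lay far above CTR, whereas OXP replicate 1 was just above the highest CTR array. Ier2 rose 3.44-fold in STS+OXP (log2 fold change 1.78, SE 0.288, adjusted p = 0.000242, limma), 1.80-fold in OXP (0.85, adjusted p = 0.0376) and 2.70-fold in STS (1.43, adjusted p = 0.00354). The OXP call was lost in 14 of 24 alternatives, among them the loss of any 1 CTR or STS+OXP array or of STS replicate 1 or 2, with the highest adjusted p, 0.130, without CTR replicate 1. Its size also turned on single OXP arrays, with 1.19 (adjusted p = 0.00128) without OXP replicate 1 and 0.37 (adjusted p = 0.0479) without OXP replicate 2. Without both, which leaves 1 OXP array, it was 0.58.

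Atf3 ran the other way. It measured 5.65, 5.60 and 5.78 in STS+OXP, 5.82, 5.65 and 5.46 in OXP, 5.26, 5.32 and 5.31 in STS, and 6.27, 6.08 and 6.07 in CTR. Every treated array was below every CTR array, and the STS arrays were the lowest. Atf3 fell by 0.46 on the log2 scale in STS+OXP (SE 0.0954, adjusted p = 0.00168, limma), by 0.50 in OXP (adjusted p = 0.000995) and by 0.84 in STS (adjusted p = 3.98e-05). None of these decreases reached a factor of 2.

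**Figure D2:**
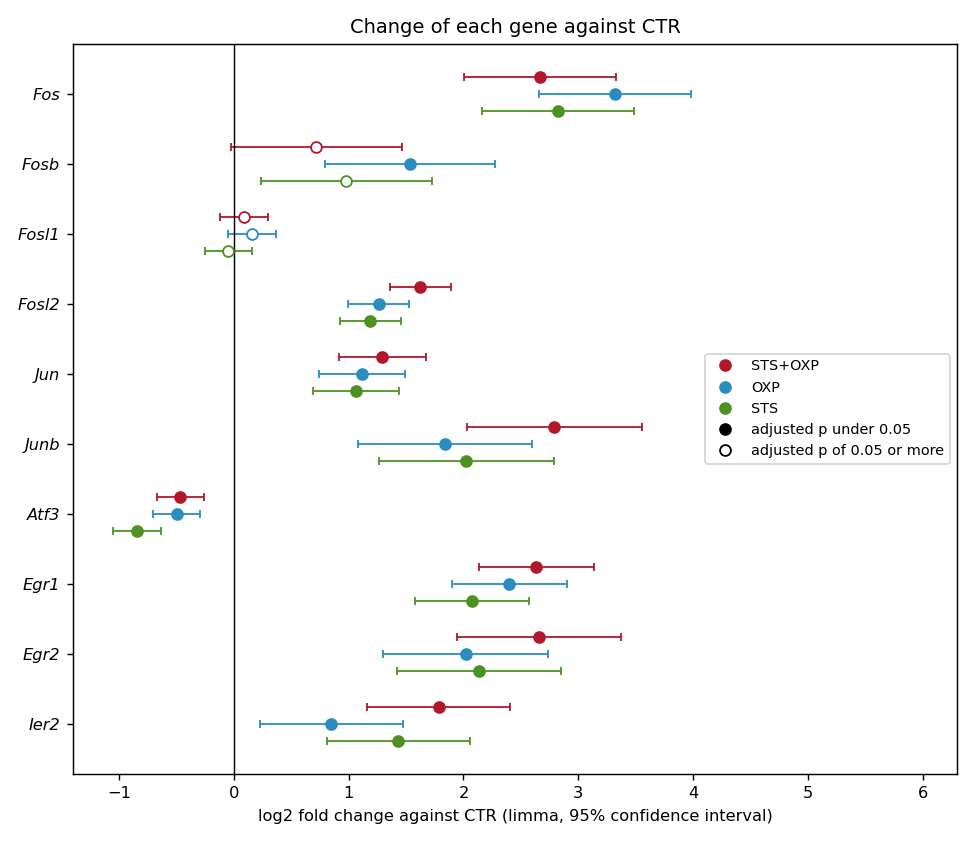
Log2 fold change (x axis) of each gene in STS+OXP, OXP and STS against CTR, with the 95% confidence interval of the limma fit, filled where the adjusted p was under 0.05 and open otherwise. Fos in OXP lies farthest to the right at 3.32, and Atf3 is the gene with all 3 values below 0. For Egr2 the plotted values are fitted ones, with CTR at background.

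Starvation was set against its absence in cells given oxaliplatin by comparing STS+OXP with OXP. No member passed the test over all arrays, and 2 of 17097 genes (0.0117%) did so in limma, while 3 members were higher and 1 lower at an unadjusted p under 0.05, and 2160 genes in all passed that limit. The methods' t-test gave 0 members at an unadjusted p under 0.05. Junb was 0.95 log2 units higher in STS+OXP (95% confidence interval 0.19 to 1.71, adjusted p = 0.301, limma) and Ier2 was 0.94 higher (0.31 to 1.56, adjusted p = 0.257), the 17th and 19th largest positive differences among all genes. Fos and Fosb pointed the other way, with differences of -0.65 (-1.31 to 0.01, adjusted p = 0.407) and -0.82 (-1.56 to -0.07, adjusted p = 0.358). They were the 2 members whose STS+OXP arrays all lay below the OXP arrays, against 7.29% of all genes.

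These differences turned on single OXP arrays. OXP replicate 2 was within 0.30 log2 units of the STS+OXP mean for all 10 genes, against 3 of 10 for OXP replicate 1 and 3 of 10 for OXP replicate 3. It exceeded the mean of the other OXP arrays by 1.43 for Ier2, 1.41 for Junb and 1.41 for Egr2 and differed from it by -0.67 for Fos and -1.03 for Fosb. OXP replicate 1, the array with the high Gapdh 3′ to 5′ difference, was above the mean of OXP replicates 2 and 3 by 1.17 for Fos and 1.11 for Fosb and below it for Junb (-1.60) and Ier2 (-1.03). Without OXP replicate 2, 407 of 17097 genes were called higher and 759 lower in STS+OXP than in OXP, so calls were gained across many genes, and 4 members were among the higher: Ier2 by 1.41 (adjusted p = 3.97e-05, limma), Fosl2 by 0.52 (adjusted p = 0.00553), Junb by 1.42 (adjusted p = 0.00704) and Egr2 by 1.11 (adjusted p = 0.0132). Without both OXP replicates 1 and 2, which leaves 1 OXP array, the differences were 1.20 for Ier2, 0.83 for Junb and 0.47 for Fosl2. Without OXP replicate 1, no member was called, and the differences were 0.59 for Ier2, 0.42 for Junb and -0.26 for Fos.

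**Figure D3:**
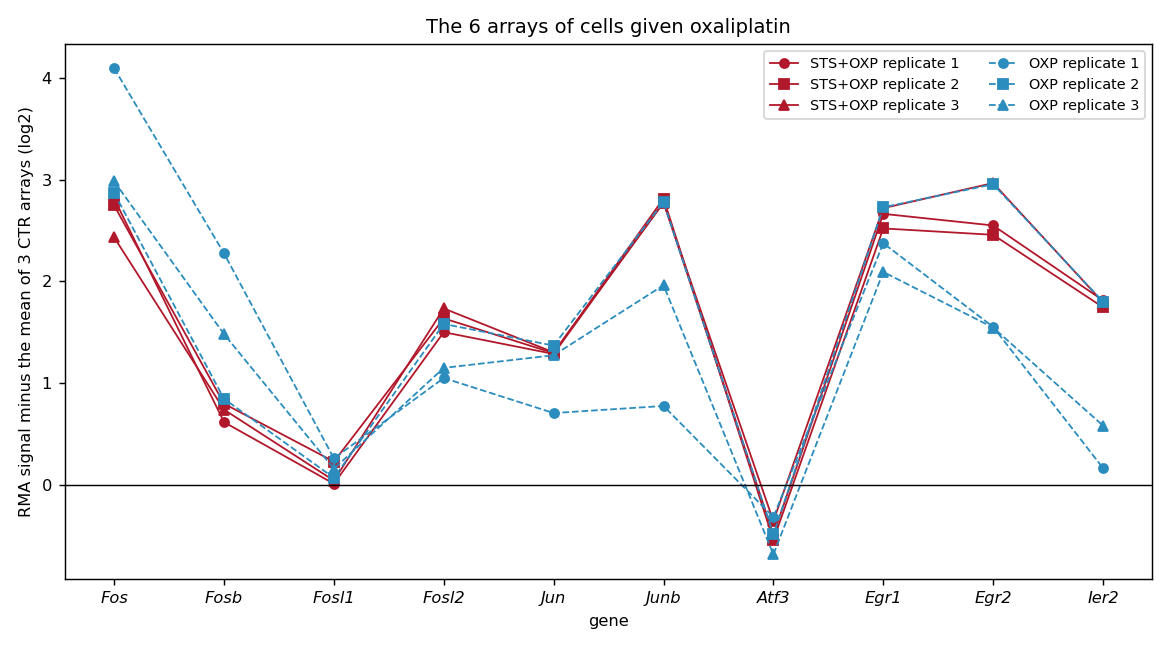
RMA signal minus the mean of the 3 CTR arrays (log2, y axis) for each gene (x axis) on the 3 STS+OXP and 3 OXP arrays; lines only join the points of 1 array. OXP replicate 2 follows the STS+OXP mean within 0.30 log2 units, and OXP replicate 1 is highest for Fos and Fosb and lowest for Junb and Ier2.

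Oxaliplatin was set against its absence in starved cells by comparing STS+OXP with STS. Fosl2 was 0.44 log2 units higher (SE 0.122, adjusted p = 0.0200, limma) and Atf3 was 0.38 higher (SE 0.0954, adjusted p = 0.0107), so 2 of 10 members were called higher and none lower, against 10.8% and 11.2% of all genes. The Fosl2 call was lost without STS replicate 2 or 3 or STS+OXP replicate 2 or 3, with an adjusted p of up to 0.0878, and the Atf3 call was lost without STS+OXP replicate 3 (adjusted p = 0.0562). Jun, Junb, Egr1 and Ier2 also had every STS+OXP array above every STS array, with differences of 0.23, 0.77, 0.56 and 0.35. This made 6 members without overlap on the higher side, against 23.8% of all genes. Their adjusted p values were 0.422, 0.155, 0.108 and 0.471, and with 1 array left out Egr1 was called without CTR replicate 1 (adjusted p = 0.0105), Junb without OXP replicate 1 (0.00787) or 2 (0.0339) and Ier2 without OXP replicate 2 (0.0467). The FOS genes with strong activation domains, Fos and Fosb, had values on the other side, -0.16 (adjusted p = 0.797) and -0.26 (adjusted p = 0.680), within the spread of the arrays.

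The interaction, the STS+OXP minus OXP difference less the STS minus CTR difference, measured how far the change with both treatments departed from the sum of the single changes on the log2 scale. It was below 0 for 5 members and above 0 for Atf3 at an adjusted p under 0.05 (limma), against 5.76% and 2.53% of all genes. Each interaction contains the STS minus CTR change with its sign reversed, and only 2 of 17097 genes were called in STS+OXP against OXP. A gene that moved in STS thus tends to have an interaction of the opposite sign, and these counts are not separate from the STS result. For Fos the change with both treatments was 2.66, whereas the single changes summed to 6.14, an interaction of -3.47 (SE 0.434, adjusted p = 0.000212) that was the lowest of all 17097 genes. It was called in all 22 alternatives, but was 5th from the lowest without OXP replicate 1 (-3.08) and 2nd without OXP replicates 1 and 2 (-3.14). Egr1 had an interaction of -1.84 (SE 0.327, adjusted p = 0.00330), called in all alternatives. Fosl2 had one of -0.83 (adjusted p = 0.00946). For Atf3 the change with both was -0.46 and the sum -1.34, an interaction of 0.87 (SE 0.135, adjusted p = 0.00117). The interactions of Fosb, -1.80 (adjusted p = 0.0379), and Jun, -0.88 (adjusted p = 0.0435), were close to the threshold. The Fosb call was lost in 10 of 22 alternatives, among them without CTR replicate 1 or 3, STS replicate 2 or 3, OXP replicate 3 or any 1 STS+OXP array (adjusted p of up to 0.0977). The Jun call was lost in 12, among them without CTR replicate 1, OXP replicate 2 or 3, or any 1 STS or STS+OXP array (adjusted p of up to 0.108).

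The other 4 members did not pass the interaction test, with -1.49 for Egr2 (adjusted p = 0.0721, limma, with CTR at background), -1.07 for Junb (adjusted p = 0.237), -0.50 for Ier2 (adjusted p = 0.533) and -0.02 for Fosl1 (adjusted p = 0.950). Junb was at -1.61 (adjusted p = 0.00266) without OXP replicate 1, -0.60 (adjusted p = 0.370) without OXP replicate 2 and -1.20 without both. Ier2 was at -0.84 (adjusted p = 0.126), -0.02 (adjusted p = 0.966) and -0.23 in the same settings. Egr2 was called without OXP replicate 1 (adjusted p = 0.0278), OXP replicate 3 (0.0405) or STS replicate 3 (0.0404), and not without OXP replicate 2 (0.0589). It was at -1.02 without OXP replicates 1 and 2.

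**Figure D4:**
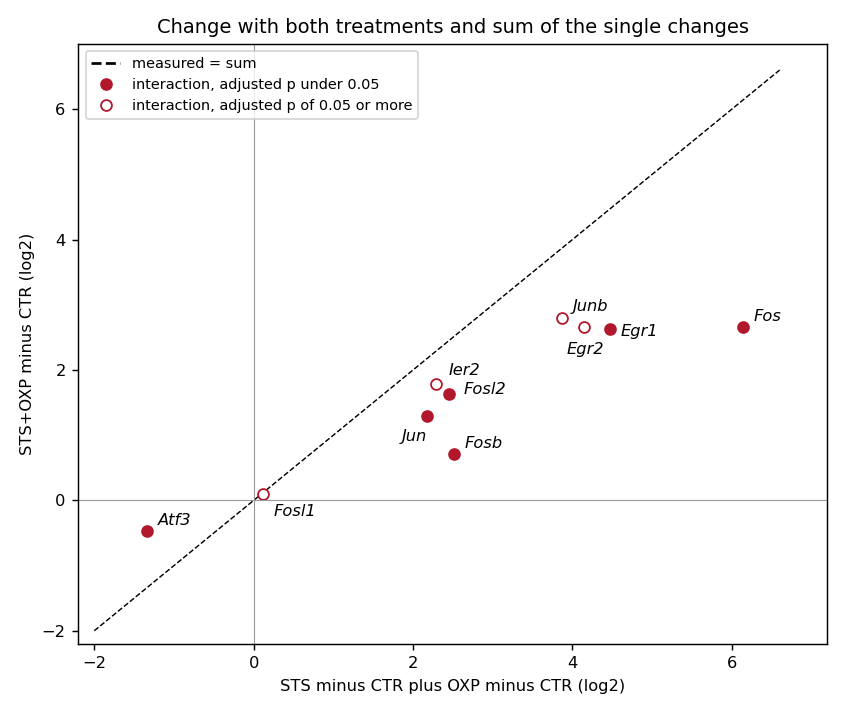
Change in STS+OXP against CTR (log2, y axis) and the sum of the OXP and STS changes against CTR (log2, x axis) for each gene, filled where the interaction had an adjusted p under 0.05. All members with a positive sum lie below the dashed line of equality, Fos farthest at 2.66 against 6.14, and Atf3 lies above it.

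The spread between arrays of a group also differed. The 10 genes had a median within-group SD of 0.0995 log2 units on the STS+OXP arrays, 0.518 on the OXP arrays, 0.143 on the STS arrays and 0.190 on the CTR arrays, and the median over all genes was 0.0863, 0.131, 0.0773 and 0.0913 in the same order. In OXP, 7 of the 10 members were above the 90th percentile of SD over all genes, and Junb had the highest SD of the members, 1.01. In STS+OXP 2 members were above that percentile, in STS 4 and in CTR 5. In STS the most variable member was Fosb (SD 0.755), and in CTR it was Egr1 (SD 0.603).

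Genes related to these factors by role were read from lists, which were chosen with earlier results of these data known. Of all genes, 16.4% rose and 14.2% fell in STS+OXP, 17.5% and 13.9% in OXP, and 9.75% and 6.74% in STS. Of 35 measured other immediate early genes of the serum and stress response, 18 rose and 2 fell in STS+OXP, 20 rose and 3 fell in OXP, and 13 rose and 3 fell in STS, with median log2 fold changes of 0.40, 0.59 and 0.29. Dusp1, the phosphatase that inactivates JNK and p38, rose by 2.85 in STS+OXP (adjusted p = 8.65e-09, limma), 2.82 in OXP (adjusted p = 9.59e-09) and 1.83 in STS (adjusted p = 2.71e-06). Ccn1, a secreted matrix protein gene, rose by 2.53 (adjusted p = 4.69e-07), 2.05 (adjusted p = 3.33e-06) and 1.77 (adjusted p = 5.01e-05) in the same groups. Nr4a1, an orphan nuclear receptor, rose by 2.18 in STS+OXP (adjusted p = 0.000258), 1.09 in OXP (adjusted p = 0.0304) and 2.40 in STS (adjusted p = 0.000364). Btg2, an antiproliferative gene and p53 target, was 1.87 higher in STS+OXP than in STS (adjusted p = 9.87e-06). Gadd45a, a growth arrest gene, fell by 1.94 in STS+OXP (adjusted p = 0.000184), by 2.61 in OXP (adjusted p = 1.30e-05) and by 1.91 in STS (adjusted p = 0.000634). Myc also fell, by 0.92 in STS+OXP (adjusted p = 5.21e-06, limma), 0.96 in OXP (adjusted p = 3.48e-06) and 0.79 in STS (adjusted p = 7.85e-05). Egr3, Egr4 and Nr4a3 were called in none of these groups. The interaction was called below 0 for 10 of the 35 and above 0 for 3, against 5.76% and 2.53% of all genes, with Dusp1 at -1.79 (adjusted p = 0.000171) and Gadd45a at 2.58 (adjusted p = 0.00205). Here too it contains the STS minus CTR change with its sign reversed.

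Among 11 measured other AP-1 family members, 4 rose and 1 fell in STS+OXP, 3 rose and 2 fell in OXP, and 1 rose and 3 fell in STS. The counts lower in STS+OXP and OXP and the count higher in STS were near the shares of all genes (14.2%, 13.9% and 9.75%). The other shares were 16.4% higher in STS+OXP, 17.5% higher in OXP and 6.74% lower in STS. Jund, the JUN gene that is usually expressed without stimulation, rose by 0.73 in STS+OXP (adjusted p = 2.22e-06, limma) and 0.75 in OXP (adjusted p = 1.76e-06). Jdp2, a JUN-dimerising repressor, fell by 1.07 in STS+OXP (adjusted p = 6.85e-06), by 1.31 in OXP (adjusted p = 1.03e-06) and by 0.56 in STS (adjusted p = 0.00427).

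Upstream, 4 of 9 measured SRF, ternary complex and CREB genes rose and 1 fell in STS+OXP, 4 rose and none fell in OXP, and 3 rose and none fell in STS. The shares of all genes that rose were 16.4%, 17.5% and 9.75% in the same order, and the count lower in STS+OXP was near its share (14.2%). Srf itself rose by 0.86 in STS+OXP (adjusted p = 0.000782, limma), 0.55 in OXP (adjusted p = 0.0180) and 0.52 in STS (adjusted p = 0.0422). Mrtfb, an actin-regulated SRF coactivator, rose by 0.84 (adjusted p = 8.82e-06), 1.00 (adjusted p = 1.60e-06) and 0.35 (adjusted p = 0.0212) in the same groups. Of 20 measured MAP kinase pathway genes, 3 rose and 3 fell in STS+OXP, 5 rose and 3 fell in OXP, and 5 rose and 1 fell in STS. The MAP kinase counts in STS+OXP were near the shares of all genes, 16.4% higher and 14.2% lower, as were the counts lower in OXP (13.9%) and in STS (6.74%). Map3k5, a stress kinase that activates JNK and p38, rose by 0.82 in STS+OXP (adjusted p = 1.47e-05), 0.88 in OXP (adjusted p = 7.88e-06) and 0.77 in STS (adjusted p = 9.09e-05). These are mRNA levels, and kinase activity was not measured on the arrays.

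Downstream, 18 AP-1 target genes were measured, of which 3 rose and 7 fell in STS+OXP, 4 rose and 6 fell in OXP, and 1 rose and 2 fell in STS. The counts higher in STS+OXP and OXP and those in STS were near the shares of all genes (16.4% higher in STS+OXP, 17.5% higher in OXP, and 9.75% higher and 6.74% lower in STS). The shares lower were 14.2% in STS+OXP and 13.9% in OXP. Lif, a cytokine gene, rose by 2.02 in STS+OXP (adjusted p = 1.60e-08, limma) and 2.34 in OXP (adjusted p = 4.39e-09). Plaur, the urokinase receptor gene, fell by 1.87 in STS+OXP (adjusted p = 1.53e-08) and by 1.90 in OXP (adjusted p = 1.29e-08). Hmox1, the heme oxygenase gene, fell by 1.66 in STS+OXP (adjusted p = 4.55e-05), by 0.96 in OXP (adjusted p = 0.00383) and by 2.01 in STS (adjusted p = 3.12e-05). Of the 10 measured corepressors and brakes, which include Jdp2 and Dusp1 again, 4 rose and 1 fell in STS+OXP, 3 rose and 2 fell in OXP, and 4 rose and 2 fell in STS. The counts lower in STS+OXP and OXP were near the shares of all genes, 14.2% and 13.9%. Pdcd4, a tumour suppressor that restrains AP-1 activity, rose by 1.10 in STS+OXP (adjusted p = 4.41e-07) and 1.05 in OXP (adjusted p = 6.82e-07), and Nab2, the corepressor of EGR proteins, rose by 0.69 in STS+OXP (adjusted p = 0.00120) and 0.79 in STS (adjusted p = 0.00117).

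**Figure D5:**
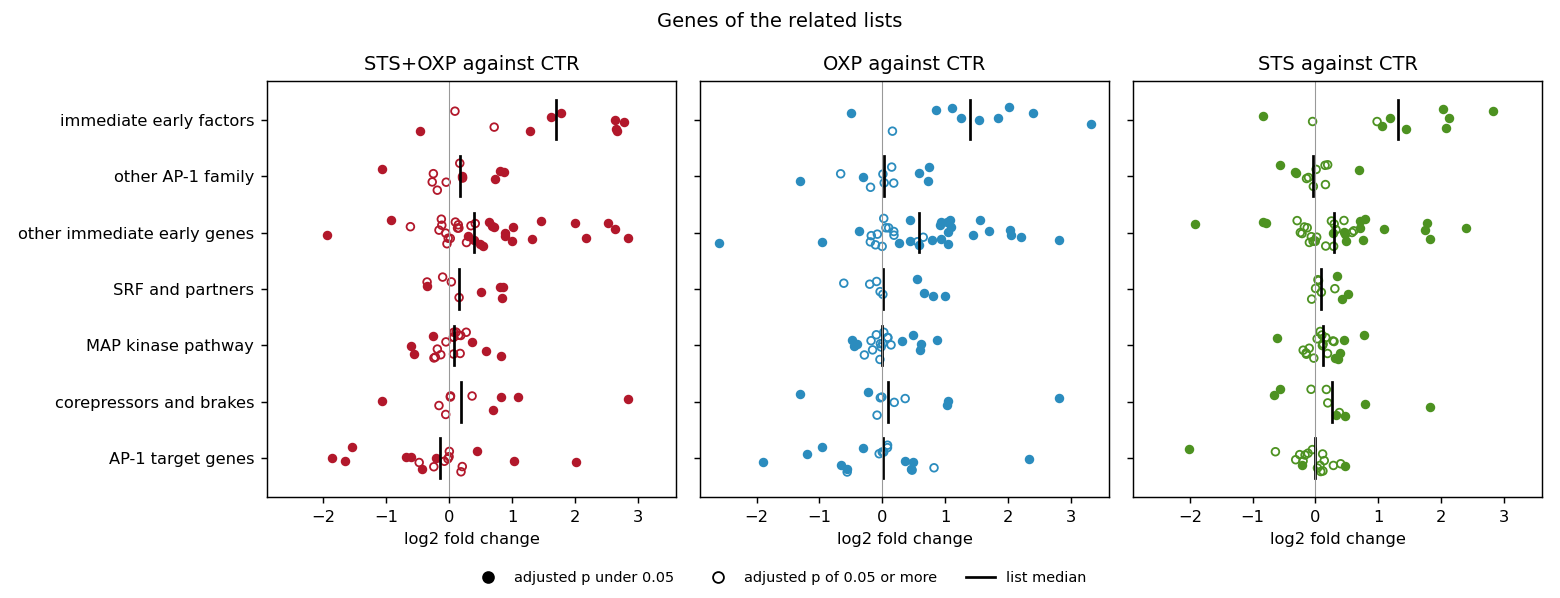
Log2 fold change (x axis) in STS+OXP, OXP and STS against CTR for the genes of each list (y axis), filled where the adjusted p was under 0.05, with the list median as a vertical bar. The immediate early factors have medians of 1.70, 1.40 and 1.31, and the other immediate early genes have 0.40, 0.59 and 0.29.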

How the data were processed

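Total RNA from CT26 cells was labelled and hybridised to 12 Affymetrix mouse 3′ IVT arrays, 3 in each of 4 groups, and groups were taken from the sample titles. The deposited log2 values were made by the authors with RMA (background correction, quantile normalisation between arrays and summary of each probe set) in R 3.02, per the submitters' processing notes. Normalisation between arrays sets each value relative to the other genes, so a change shared by most genes would not be seen. Of 45141 probe sets, 28898 carried 1 gene symbol, 551 several and 15588 none, and 104 were controls. Each of 17097 genes was read from its brightest single-symbol probe set by mean signal, which leaves other transcript ends of a gene unread. The members and lists were chosen with earlier results of these data known.

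All 12 arrays entered 1 fit of group means (limma 3.58.1, R 4.3.3, with 8 residual and 5.05 prior degrees of freedom), and tests were two-sided with Benjamini-Hochberg adjustment over 17097 genes and a threshold of 0.05. The fit was tested on simulated data. Intervals are 95% confidence intervals. Where every array of a group was at or below the highest control probe set, a fold change is a bound against the mean of those control signals. Named genes were the 10 members, up to 4 called genes of each list with the largest change, and the 3 genes nearest to each changed member in pattern. Myc, Egr3, Egr4 and Nr4a3 were named in addition. Alternatives were median centring, cyclic loess, the average of a gene's probe sets, specific probe sets, genes above the median signal, a trended and robust fit, array weights, only the groups compared, a replicate block, each array left out, OXP replicates 1 and 2 left out together, a fold of at least 2, and Welch's test as named in the study's methods. Start sequences came from RefSeq (GRCm38.p6).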

Additional observations from a re-analysis of the deposited data

Results flagged for a closer look

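The effect of starvation differed between cells with and without oxaliplatin for 6 of the 10 genes by the test of the difference itself (limma, adjusted p under 0.05), where the value is the STS+OXP minus OXP difference less the STS minus CTR difference on the log2 scale. Among all genes 5.76% were called below 0 and 2.53% above 0. Fos had -3.47, Egr1 had -1.84, Fosb had -1.80, Jun had -0.88 and Fosl2 had -0.83, while Atf3 had 0.87. For Fos, Fosb, Fosl2, Jun and Egr1 the STS+OXP value was less than the sum of both single increases, and for Atf3 the decrease with both treatments was less than the sum of both decreases. The CTR arrays enter each of these values along with the OXP arrays. Each also contains the STS minus CTR change with its sign reversed, so it is not separate from the STS result. The STS+OXP minus OXP differences were -0.65 for Fos, 0.24 for Egr1, -0.82 for Fosb, 0.18 for Jun, 0.36 for Fosl2 and 0.03 for Atf3. The STS minus CTR differences were 2.82, 2.07, 0.98, 1.06, 1.19 and -0.84 in the same order. Without OXP replicates 1 and 2, which leaves 1 OXP array, the interactions were -3.14 for Fos, -1.53 for Egr1, -1.74 for Fosb, -1.04 for Jun, -0.71 for Fosl2 and 1.06 for Atf3. The Fosb and Jun calls were lost in 10 and 12 of 22 alternatives.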

How the results depend on the processing

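Counts of called members are given as main value against alternative (limma unless stated). For STS+OXP against CTR, 1 member lower (2434 of 17097 genes) became 0 at a fold of at least 2. For OXP against CTR, 8 higher (2995 of 17097 genes) became 0 with the methods' t-test after adjustment (570 genes). The 1 lower (2382 genes) became 0 with that test and at a fold of at least 2. For STS against CTR, 7 higher (1667 genes) became 3 with that test (435 genes). The 1 lower (1152 genes) became 0 at a fold of at least 2 (78 genes) and with the t-test (280 genes). Calls with the t-test thus fell across all genes. At an unadjusted p under 0.05 that test gave 8 higher and 1 lower in STS+OXP, 5 and 1 in OXP, and 7 and 1 in STS. For STS+OXP against OXP, 0 higher (1 of 17097 genes) became 0 to 4 with 1 array left out, the 4 without OXP replicate 2 (407 genes). For STS+OXP against STS, 2 higher (1854 of 17097 genes) became 1 with median centring (1563 genes) or the t-test (1057), 4 with array weights (2881) or without OXP replicates 1 and 2 (2539), 6 with only the arrays compared (2706), 0 at a fold of at least 2 (177), and 0 to 4 with 1 array left out, the 0 without STS+OXP replicate 3 and the 4 without OXP replicate 2. For the interaction, 5 lower (985 of 17097 genes) became 3 and 1 higher (432 genes) became 0 at a fold of at least 2. The lower count was 3 to 7 with 1 array left out, the 7 without OXP replicate 1 and the 3 without CTR replicate 1, STS replicate 2 or any 1 STS+OXP array. The cause of these shifts was not tested. No alternative reversed a called direction. Averaging the probe sets of a gene, taking specific probe sets or keeping genes above the median signal changed no call. Replicates with the same number were not paired in any source, and over 18 same-numbered pairs of arrays the correlation of deviations from group means was -0.199 to 0.102. With a replicate block the members called higher and lower numbered 7 and 1 in STS+OXP, 8 and 1 in OXP, 7 and 1 in STS, 0 and 0 in STS+OXP against OXP, 2 and 0 in STS+OXP against STS, and 1 and 4 in the interaction, where the Fosb call was lost (adjusted p = 0.0686). Precision is limited by 3 arrays a group and, for Egr2 and Fosb, by signals near background in CTR.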

Other observations

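The genes nearest to each member in pattern were found by the root mean square difference of deviations from the gene's own mean over the 12 arrays, a description with no test. Genes with RIKEN, Gm or LOC names were left out. Genes with an SD over the 12 arrays under 0.75 times that of the member were left out too. For Egr1 the nearest genes were Ccn1 at 0.183 log2 units, Tgtp1 at 0.249 and Ifit3 at 0.251, and for Junb they were Irf7 at 0.233, Lgals3bp at 0.335 and Egr2 at 0.343. For Fos they were Gbp2b at 0.389, Dpt at 0.417 and Gbp2 at 0.442, and for Fosb Hgsnat at 0.384, Irf2 at 0.392 and Ifit2 at 0.418. Jun was nearest to Trim14 at 0.140, Jade2 at 0.150 and Zfp36l1 at 0.150, and Fosl2 to Mrc2 at 0.119, Idh1 at 0.139 and H2-K1 at 0.140. Egr2 was nearest to Ccn1 at 0.326, Sox4 at 0.329 and Junb at 0.343, Ier2 to Fzd2 at 0.206, Cyp51 at 0.222 and Gadd45g at 0.233, and Atf3 to Zfp330 at 0.0855 and Wfs1 at 0.102, with Rhbdd1 between these. The points share groups and arrays.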
